A study of Rattus norvegicus with 39 samples.

Results

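At 28 months of age, cortex libraries of 3 diets on which rats were long-lived were compared with those of 3 diets on which survival was at baseline. The comparison took in 18 of the 39 libraries of the series, 9 in each class, and each library was a pool of RNA from 2 male BN rats (SubstrainBN/SsNOlaHSD). The 3 pools of rats fed plain chow ad libitum (AL) for life were left out, because their libraries stand apart from the rest.

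All rats ate the same base chow and started their diets at 2 months of age. The long-lived class was made of caloric restriction (CR) throughout, of AL feeding switched to CR (AL>CR), and of CR switched to AL feeding with α-lipoic acid (CR>AL+LA). The baseline class was made of AL feeding with lipoic acid throughout (AL+LA), of AL+LA feeding switched to CR (AL+LA>CR), and of CR switched to plain AL feeding (CR>AL). Switches were made at 12 months, restricted rats received 55% of the food that control rats ate, and lipoic acid was given at 1.5 g/kg of chow. Labels gave the diet of each pool, and the 2 classes follow the survival that the study attached to each diet, so no rat's own lifespan entered.

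The 2 classes were not balanced for what the rats ate. Of the 3 long-lived diets 2 were restricted at 28 months, against 1 of the 3 baseline diets. Restriction before the switch and lipoic acid at any age were uneven as well, with early restriction in more of the long-lived diets and lipoic acid in more of the baseline diets. The contrast was therefore also run within the pools restricted at 28 months (CR and AL>CR against AL+LA>CR) and within those fed ad libitum (CR>AL+LA against AL+LA and CR>AL), and feeding at 28 months was contrasted in the same fit. Among the restricted pools only the baseline diet, AL+LA>CR, had held lipoic acid. Survival class and lipoic acid therefore cannot be told apart there.

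Caloric restriction lowers food intake without malnutrition, slows ageing in rodents and is accompanied by a lower body temperature. Cells answer mild cold with the RNA-binding proteins Cirbp and Rbm3, whose RNAs accumulate when temperature falls and which steady other transcripts. In brain, restriction has also been tied to mitochondrial respiration, protein synthesis, immune activity and the circadian clock, and genes of these pathways were read as lists.

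Reads on genes ranged from 2754552 to 5614861 per pool, and levels are given in CPM, counts scaled to library size, of which 1 stood for 2.62 to 5.78 reads. The classes also differed in a measure of the libraries. The level of Rn28s, the 28S ribosomal RNA that remained after depletion, lay between 25480 and 33190 CPM in the 9 long-lived pools. Of the baseline pools, 3 (AL+LA pools 35 and 36 and AL+LA>CR pool 24) lay at 31160 to 35980 CPM, of which pools 36 and 24 were above every long-lived pool, and the other 6 lay below every long-lived pool, at 3789 to 23460 CPM. Rn28s itself was 0.53 higher (log2, SE 0.23) in the long-lived class, with an adjusted p of 0.642. Levels in these 3 and these 6 baseline pools (high and low Rn28s) are given beside the called genes and some others. Fits without the 6, chosen after seeing the data, are given as well. The part of Rn28s in the results was not tested. The share of reads not aligned was 37.99 to 41.2% in the long-lived pools and 34.08 to 41.31% in the baseline pools.

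Few marker genes had a symbol, so the label of cerebral cortex could be checked only in part, with 3 of 12 excitatory neuron markers at a summed 71.4 to 178.4 CPM in the long-lived and 81.9 to 131.5 CPM in the baseline pools. The interneuron list had 9 of its 16 members, and their summed level was 788.1 to 866.2 CPM in the long-lived pools and 767.9 to 933.6 CPM in the baseline pools. The 7 of 16 microglial markers summed to 317.4 to 382.4 and 273.6 to 408.6 CPM. The 8 of 14 cerebellar markers summed to 531.5 to 703.8 and 502.1 to 737 CPM, and Gabra6, the cerebellar granule cell receptor subunit, stood out in AL+LA>CR pool 24 at 31.4 CPM and in CR>AL+LA pool 28 at 28.0 CPM. Most of that sum was Itpr1, at 447.2 and 446 CPM on average in the classes, and Calb1, at 97.4 and 92.1 CPM. The sum therefore says little of the other cerebellar markers. Of the thalamic list 3 of 6 members were measured, and they summed to 32.9 to 180.6 and 46.14 to 137.2 CPM. Slc17a6, at 36.89 ± 26.65 and 36.55 ± 15.18 CPM in the classes (SD, n = 9), is on both this list and the excitatory list. The excitatory sum is therefore not one of cortical markers alone. Its remaining members, Neurod6 and Fezf2, averaged 63.0 and 9.47 CPM in the long-lived and 56.2 and 10.9 CPM in the baseline pools. In pooled tissue, fewer cells of a type and less RNA per cell cannot be told apart.

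Few genes separated the long-lived from the baseline diets. Of 17230 genes tested, 6 passed an adjusted p of 0.05 (0.0348% of genes), of which 4 were higher (0.0232%) and 2 were lower (0.0116%) in the long-lived class. The 4 that rose were Sars, Cirbp, Sdf4 and Atp5c1, by 0.46 to 0.50 on the log2 scale. Both that fell have no symbol in the names used here. At an unadjusted p under 0.05 there were 1103 genes (6.4%), with 654 higher (3.8%) and 449 lower (2.61%). The median log2 change over all genes was 1.47e-05.

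**Figure D1:**
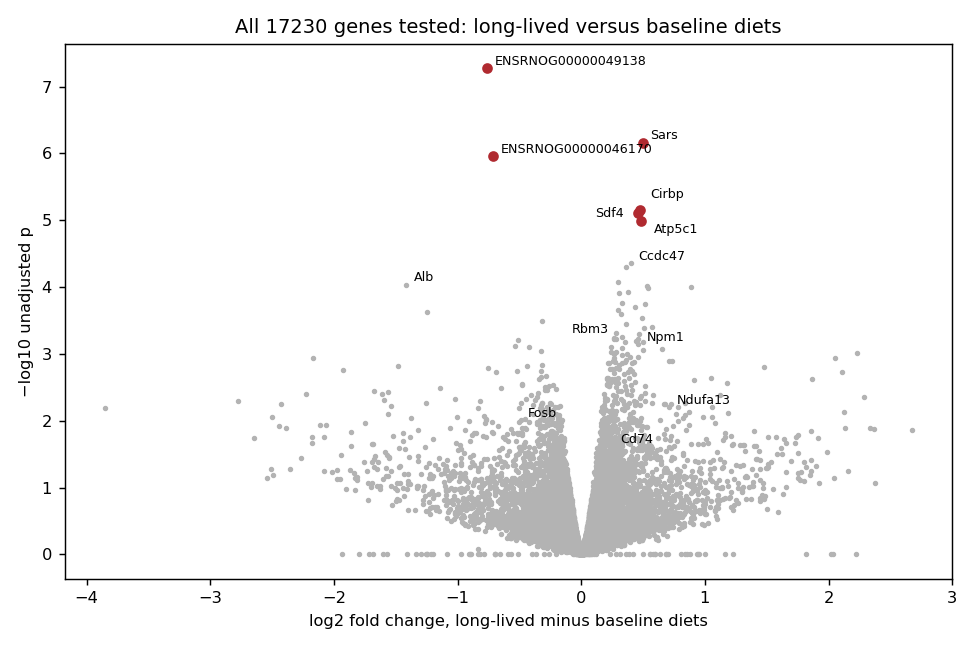
Log2 fold change (long-lived minus baseline diets, horizontal axis) against −log10 of the unadjusted p (vertical axis) for each of 17230 genes. The 6 red points passed an adjusted p of 0.05, and grey points did not.

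Sars encodes cytosolic seryl-tRNA synthetase, which loads serine onto its tRNA for translation. Its level in the long-lived pools ran from 56.9 to 72.3 CPM with a median of 65.4 CPM. In the baseline pools it ran from 31.1 to 65.3 CPM with a median of 44.0 CPM. The classes overlapped through AL+LA pools 35 and 36, at 59.2 and 65.3 CPM. AL+LA pool 34 lay just below the long-lived range at 54.5 CPM, and the other 6 baseline pools lay lower still, at 31.1 to 49.6 CPM. The class means were 64.5 ± 5.35 and 46.6 ± 11.5 CPM (SD, n = 9 each), a log2 difference of 0.50 (SE 0.08, adjusted p = 0.00602 by edgeR's quasi-likelihood test). Sars passed without any single pool, with an adjusted p of 0.00156 to 0.0364 over the 18 fits. It did not pass without the diet CR (0.47, adjusted p = 0.0625), AL>CR (0.48, adjusted p = 0.125) or CR>AL (0.38, adjusted p = 0.776).

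By diet, Sars averaged 66.9 ± 4.53 CPM in CR, 66.1 ± 6.00 CPM in AL>CR and 60.4 ± 4.47 CPM in CR>AL+LA (SD, n = 3). It averaged 59.7 ± 5.43 CPM in AL+LA, 41.6 ± 9.51 CPM in AL+LA>CR and 38.5 ± 3.78 CPM in CR>AL. The means of the last pair lay well below the others, while CR>AL+LA and AL+LA differed by less than their spread. In the 3 baseline pools of high Rn28s Sars was 58.0 ± 7.91 CPM, and in the 6 of low Rn28s it was 40.9 CPM on average. With those 6 pools left out the log2 difference was 0.20 (unadjusted p = 0.062, adjusted p = 0.999), a fit that holds no CR>AL pool.

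Cirbp, the cold-inducible RNA-binding protein, was next. Its level ran from 31.3 to 44.9 CPM in the long-lived pools (median 37.95 CPM) and from 21.6 to 38.7 CPM in the baseline pools (median 24.95 CPM). A single baseline pool, AL+LA>CR pool 24 at 38.7 CPM, lay inside the long-lived range, and the other 8 lay below it. The means were 37.9 ± 4.53 and 27.5 ± 5.05 CPM (SD, n = 9 each), a log2 difference of 0.47 (SE 0.09, adjusted p = 0.0268). By diet it was highest in CR at 42.6 ± 3.14 CPM and in AL>CR at 37.1 ± 1.58 CPM, and lowest in CR>AL at 23.8 ± 1.87 CPM (SD, n = 3). Cirbp lay at 31.7 ± 6.19 CPM in the 3 baseline pools of high Rn28s and at 25.4 CPM in the 6 of low Rn28s, and without those 6 the difference was 0.18 (unadjusted p = 0.141).

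Sdf4 encodes Cab45, a calcium-binding protein of the Golgi. The long-lived pools lay at 51.5 to 65.6 CPM (median 57.1 CPM) and the baseline pools at 32.7 to 61.8 CPM (median 37.5 CPM). AL+LA pools 35 and 36, at 60.2 and 61.8 CPM, sat among the long-lived pools, and every other baseline pool lay below all of them. The log2 difference was 0.46 (SE 0.09, adjusted p = 0.0268), from means of 58.0 ± 4.70 and 42.8 ± 11.1 CPM (SD, n = 9). The 3 baseline pools of high Rn28s averaged 56.4 ± 8.07 CPM and the 6 of low Rn28s 36.1 CPM. Without those 6 the difference was 0.10 (unadjusted p = 0.331).

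Atp5c1 encodes the γ subunit of mitochondrial ATP synthase, the rotor that couples proton flow to ATP synthesis. It lay at 62.3 to 85.1 CPM in the long-lived pools (median 74.4 CPM) and at 40.0 to 69.8 CPM in the baseline pools (median 47.9 CPM). The same 3 baseline pools, at 66.6, 66.3 and 69.8 CPM, overlapped the long-lived range, and the other 6 did not. The means were 73.9 ± 8.08 and 53.4 ± 11.2 CPM (SD, n = 9), a log2 difference of 0.48 (SE 0.09, adjusted p = 0.0292). The baseline mean was 67.6 ± 1.93 CPM at high and 46.3 CPM at low Rn28s, and the difference without the 6 pools was 0.10 (unadjusted p = 0.347).

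The calls for the last 3 genes rested on all pools together. With 1 pool left out, Cirbp no longer passed in 11 of 18 fits, Sdf4 in 11 and Atp5c1 in 12, with adjusted p between 0.0552 and 0.127 in those fits. The pools concerned were 17, 20, 21, 22, 23, 25, 26, 27 and 28 for all 3 genes, with 16 and 34 added for Cirbp, 18 and 30 for Sdf4 and 18, 30 and 34 for Atp5c1. Without CR, AL>CR or CR>AL none of the 3 genes passed, without CR>AL+LA Sdf4 and Atp5c1 did not pass, and without AL+LA>CR Sdf4 did not. The log2 difference itself stayed between 0.39 and 0.55 over the 18 fits of each gene without 1 pool. Without the AL+LA>CR pool 22 and the AL+LA pool 34, the 2 of lowest Rn28s (an alternative chosen after seeing the data), Sars was at 0.50 (adjusted p = 0.0143), Cirbp at 0.45 (adjusted p = 0.122), Sdf4 at 0.36 (adjusted p = 0.103) and Atp5c1 at 0.37 (adjusted p = 0.168). With the Rn28s level as a covariate none of the 4 passed, at 0.46, 0.41, 0.31 and 0.30 with adjusted p of 0.157, 0.385, 0.642 and 0.642.

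**Figure D2:**
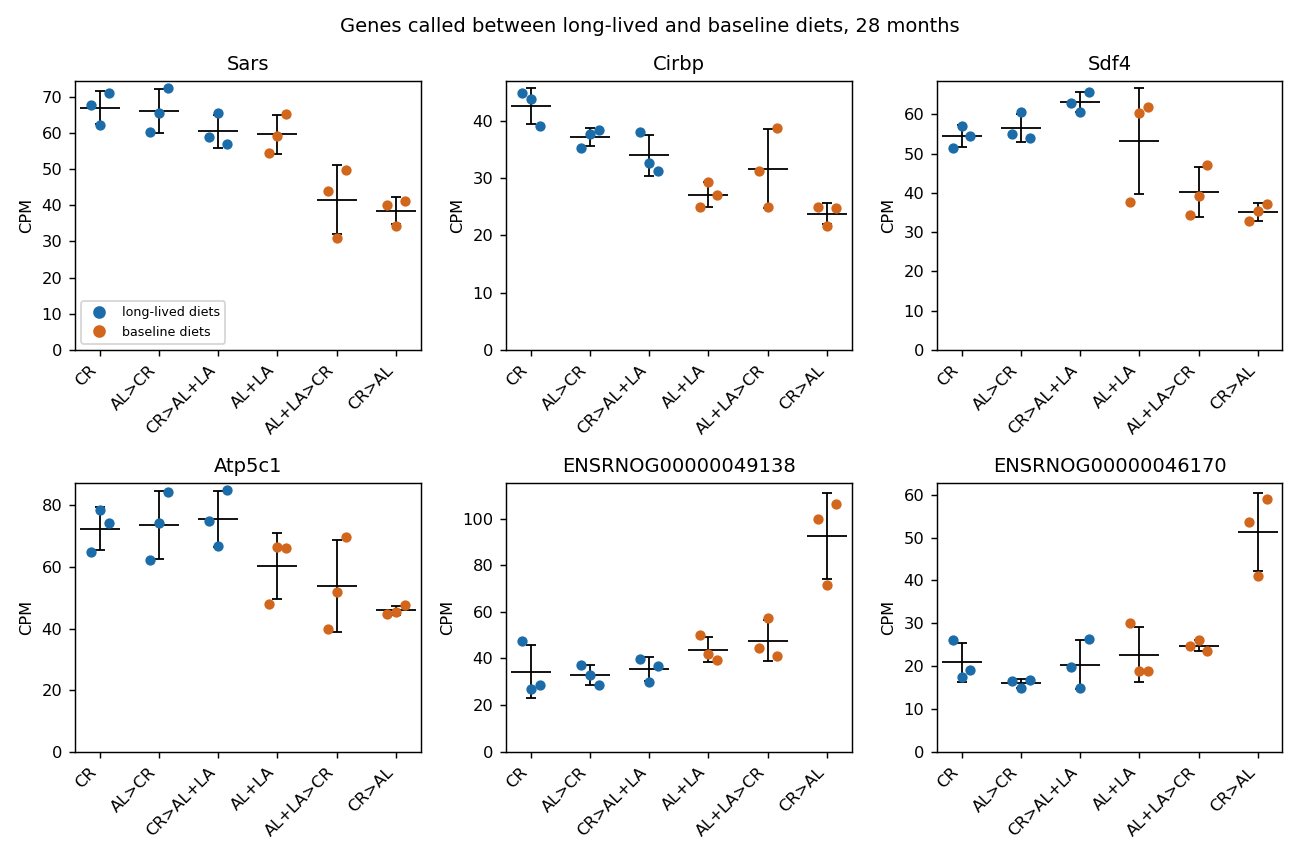
Normalised level (CPM, vertical axis from 0) of the 6 called genes in each of the 18 pools, by diet. Points are pools, blue for long-lived and orange for baseline diets, bars are the mean and SD of 3 pools, and the high CR>AL pools of ENSRNOG00000049138 reach 71.5 to 106.2 CPM.

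**Figure D3:**
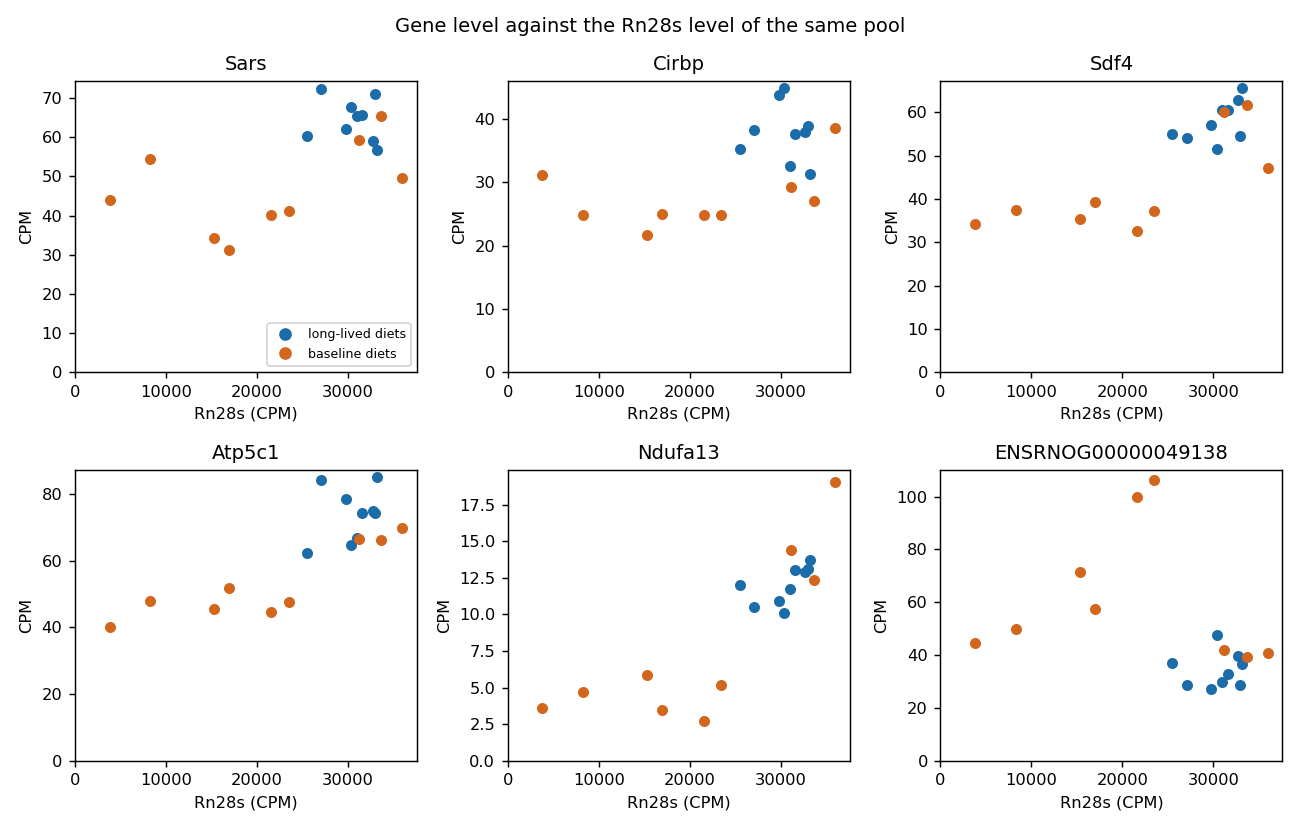
Level of 6 genes (CPM, vertical axis from 0) against the Rn28s level (CPM, horizontal axis) of the same pool. The 3 baseline pools at 31160 CPM of Rn28s or above lie among or near the long-lived pools, and the other 6 lie lower for Sdf4, Atp5c1 and Ndufa13.

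The 2 genes that fell in the long-lived class were protein-coding genes known here only by identifier, ENSRNOG00000049138 and ENSRNOG00000046170. The first lay at 27.01 to 47.5 CPM in the long-lived pools (median 32.9 CPM) and at 39.3 to 106.2 CPM in the baseline pools (median 50 CPM). Its 3 CR>AL pools, at 99.9, 71.5 and 106.2 CPM, stood above all others, and the other 6 baseline pools lay at 39.3 to 57.5 CPM, where they overlapped the long-lived pools. The log2 difference was −0.76 (SE 0.11, adjusted p = 0.000917), from means of 34.2 ± 6.66 and 61.4 ± 25.7 CPM (SD, n = 9). ENSRNOG00000046170 had the same arrangement, with 53.7, 41.1 and 59.0 CPM in CR>AL and 14.8 to 30.0 CPM in the other 15 pools. Its difference was −0.71 (SE 0.12, adjusted p = 0.00633). Both passed in each fit without 1 pool. Neither passed without the CR>AL diet, where they lay at −0.42 and −0.34, and the second did not pass without AL>CR either (−0.60). With Rn28s as a covariate ENSRNOG00000049138 passed (−0.74, adjusted p = 0.0286). Without the 6 baseline pools of low Rn28s, which hold all of CR>AL, it lay at −0.27 (unadjusted p = 0.0904) and ENSRNOG00000046170 at −0.18 (unadjusted p = 0.308), both with an adjusted p of 0.999. The baseline means of the first were 40.8 CPM at high and 71.6 CPM at low Rn28s, and those of the second 20.5 and 39.1 CPM.

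Promoters of Cirbp, Rbm3 and Sars are shown because Cirbp was called between the classes and Rbm3, its fellow cold-inducible gene, between the feeding states, and Sars had the smallest p of the named genes. Each is the 250 bases before the transcription start in RefSeq (GRCr8, not the build of the counts), with motif matches in capitals.
Cirbp: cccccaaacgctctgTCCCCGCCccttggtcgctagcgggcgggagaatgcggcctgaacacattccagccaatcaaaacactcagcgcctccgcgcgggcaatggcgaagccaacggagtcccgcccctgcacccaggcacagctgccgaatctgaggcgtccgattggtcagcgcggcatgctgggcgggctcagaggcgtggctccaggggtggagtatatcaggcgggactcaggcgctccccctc
Rbm3: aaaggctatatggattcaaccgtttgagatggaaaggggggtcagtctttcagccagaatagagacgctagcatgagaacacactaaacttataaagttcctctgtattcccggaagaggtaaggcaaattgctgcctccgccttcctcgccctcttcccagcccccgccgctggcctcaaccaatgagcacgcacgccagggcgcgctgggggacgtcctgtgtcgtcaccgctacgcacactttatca
Sars: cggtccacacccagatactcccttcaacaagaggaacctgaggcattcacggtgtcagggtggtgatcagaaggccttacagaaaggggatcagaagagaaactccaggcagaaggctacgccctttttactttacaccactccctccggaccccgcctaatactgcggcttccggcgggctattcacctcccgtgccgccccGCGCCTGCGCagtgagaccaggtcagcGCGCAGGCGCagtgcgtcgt
The Cirbp promoter is at chr7:10189476-10189725 on the minus strand, the Rbm3 promoter at chrX:17020655-17020904 on the plus strand, and the Sars promoter (Sars1 in RefSeq) at chr2:198769366-198769615 on the minus strand.

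The mild cold response element TCCCCGCC, described for Cirbp, was found once in the Cirbp promoter, from base −235 to −228, and not in the Rbm3 or Sars window. On either strand it stood in 4.45% of 27457 promoters of the same length. The element of nuclear respiratory factor 1 was found at 2 places in the Sars promoter, at bases −47 to −38 and −20 to −11, and in 4.17% of all promoters. The E box CACGTG (5.79% of promoters) was found in the Sdf4 promoter alone of the 5 searched, those of Sars, Cirbp, Sdf4, Atp5c1 and Rbm3. The amino acid response element TGATGNAA (3.27%) was in none of them. A match describes the letters of the window and is no evidence of binding.

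Rbm3, the other cold-inducible RNA-binding protein, did not pass between the classes. It lay at 49.6 to 102.2 CPM in the long-lived pools and at 48.9 to 105.8 CPM in the baseline pools, ranges that overlapped almost whole. The log2 difference between the classes was 0.33 (SE 0.09, adjusted p = 0.309). Within the restricted pools it was −0.00 (SE 0.12) and within the pools fed ad libitum 0.25 (SE 0.13).

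Rbm3 was higher with restriction at 28 months, in a contrast of the 9 restricted with the 9 ad libitum pools. The feeding contrast was not balanced either. Lipoic acid and early restriction were in more of the ad libitum diets, and more of the restricted diets were long-lived. In that contrast 4 genes passed (0.0232% of genes), 3 of them higher (0.0174%) and 1 lower (0.0058%), and 910 had an unadjusted p under 0.05 (5.28%, with 2.61% higher). The restricted pools averaged 96.6 ± 7.03 CPM and the ad libitum pools 61.3 ± 12.8 CPM (SD, n = 9), a log2 difference of 0.66 (SE 0.09, adjusted p = 0.000228). By diet the means were 93.8 ± 5.47, 99.3 ± 2.47 and 96.5 ± 11.8 CPM in CR, AL>CR and AL+LA>CR, and 69.0 ± 19.9, 59.4 ± 6.19 and 55.6 ± 9.02 CPM in CR>AL+LA, AL+LA and CR>AL (SD, n = 3). The restricted pools lay at 83.3 CPM or above, and of the ad libitum pools CR>AL+LA pool 28, at 89.4 CPM, was the one that reached them. Rbm3 passed in every fit without 1 pool, with adjusted p from 5.37e-06 to 0.00155.

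Cirbp in the same feeding contrast was 37.1 ± 6.12 CPM in restricted and 28.3 ± 5.04 CPM in ad libitum pools (SD, n = 9), a log2 difference of 0.39 (SE 0.09) whose adjusted p was 0.113. With feeding at 28 months held in the contrast of survival, Cirbp was at 0.38 (adjusted p = 0.189), Sars at 0.51 (adjusted p = 0.012), Sdf4 at 0.51 (adjusted p = 0.0232) and Atp5c1 at 0.49 (adjusted p = 0.0724).

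Among the genes called in the feeding contrast, a mitochondrial tRNA gene known here by its identifier, ENSRNOG00000032274, was higher in restricted pools, at 272.4 ± 238.5 CPM against 84.5 ± 45.9 CPM in ad libitum pools (SD, n = 9). The log2 difference was 1.74 (SE 0.33, adjusted p = 0.0377). Pools varied widely, as the long-lived pools ran from 37.8 to 774.9 CPM with a median of 86.5 CPM. Means were 317.3, 186.4 and 313.4 CPM in CR, AL>CR and AL+LA>CR, and 49.3, 80.0 and 124.2 CPM in CR>AL+LA, AL+LA and CR>AL. A gene without a symbol, ENSRNOG00000024799, fell from 20.4 ± 2.48 CPM in ad libitum to 12.7 ± 2.81 CPM in restricted pools, a log2 difference of −0.71 (SE 0.11, adjusted p = 0.00498).

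**Figure D4:**
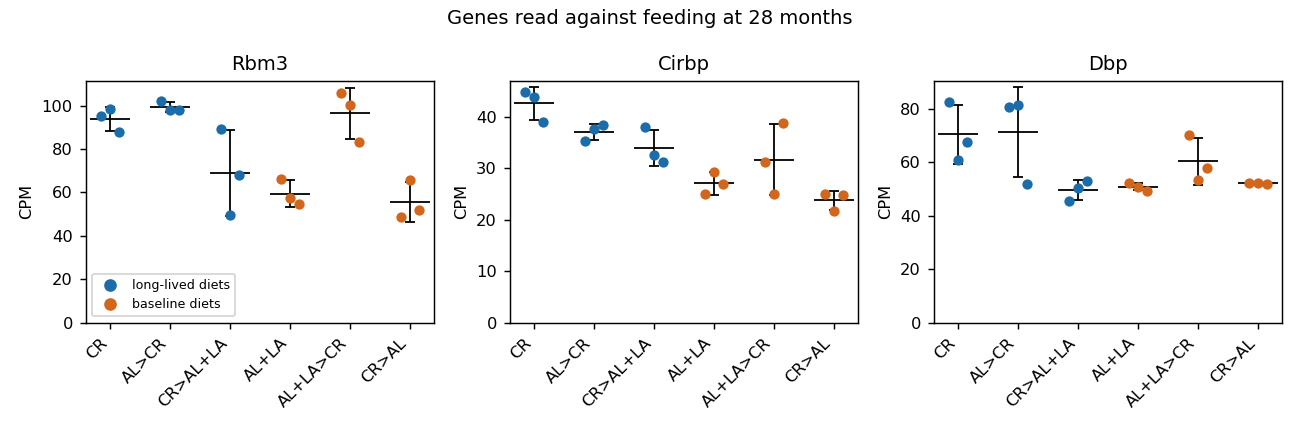
Normalised level (CPM, vertical axis from 0) of Rbm3, Cirbp and Dbp by diet, with points for pools and bars for the mean and SD of 3 pools. Rbm3 averages 93.8 to 99.3 CPM in the 3 diets restricted at 28 months and 55.6 to 69.0 CPM in the 3 fed ad libitum.

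Within a feeding state no gene passed by edgeR. In the contrast of restricted pools, survival class and lipoic acid cannot be told apart. Among pools restricted at 28 months 0 genes passed by edgeR (824 at an unadjusted p under 0.05, which is 4.78%, with 2.73% higher and 2.05% lower, and 1 by DESeq2), and among those fed ad libitum 0 passed (971 at an unadjusted p under 0.05, which is 5.64%, with 3.13% higher and 2.51% lower, and 2 by DESeq2). The difference between the 2 feeding states gave 0 genes by edgeR (659 at an unadjusted p under 0.05, which is 3.82%, with 2.05% higher and 1.77% lower) and 0 by DESeq2. Sars had a log2 difference of 0.69 among restricted pools (SE 0.12, adjusted p = 0.0692) and of 0.34 among ad libitum pools (SE 0.12, adjusted p = 0.862). The difference between those values was 0.34 (SE 0.17, unadjusted p = 0.0539). Cirbp was at 0.34 and 0.43, Sdf4 at 0.48 and 0.54 and Atp5c1 at 0.45 and 0.52 in the 2 states, each with the same sign in both. As these genes were called over the same pools, the shared sign is no independent evidence.

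Next to the called genes stood 8 named genes with the smallest unadjusted p in the higher direction, none of which passed. They were Ccdc47, Arpp19, Asrgl1, Galntl1, Naca, Ddx3x, Bccip and Ppp1r9b, with log2 differences of 0.32 to 0.53 and adjusted p of 0.107 to 0.309. Ccdc47, a protein of the endoplasmic reticulum, averaged 141.3 ± 9.09 and 108.6 ± 27.6 CPM in the classes (SD, n = 9), with an adjusted p of 0.107. Naca, a subunit of the nascent polypeptide-associated complex at the ribosome, averaged 86.7 ± 9.57 and 64.5 ± 16.1 CPM. Ddx3x, an RNA helicase of translation initiation, averaged 223.8 ± 18.6 and 180.8 ± 35.1 CPM. In the 3 baseline pools of high Rn28s the means of Ccdc47, Naca and Ddx3x were 141.8, 82.4 and 219 CPM, and in the 6 of low Rn28s they were 92.0, 55.6 and 161.7 CPM. The symbol Arpp19 stands for more than 1 identifier, and reads could be split between them.

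In the lower direction the 12 named genes of smallest p were Alb, Srrm2, Fmnl1, Nat8l, Nav2, Kcng4, Pttg1ip, Synj2, Pigq, Arl5b, Prkcdbp and Runx2, and again none passed. Alb, serum albumin, had the largest difference, −1.41 (SE 0.31, adjusted p = 0.135). It lay at 4.92 to 22.8 CPM in the long-lived pools and at 10.1 to 126.3 CPM in the baseline pools. AL+LA pool 35 at 126.3 CPM and AL+LA>CR pools 24 and 22 at 61.1 and 46.6 CPM stood above all others, and the other 6 baseline pools overlapped the long-lived range or lay just above it. Without pool 35 the difference was −0.86 (adjusted p = 0.179). Alb did pass without pools 22 and 34 (−1.54, adjusted p = 0.0136) and without the 6 baseline pools of low Rn28s (−2.44, adjusted p = 1.3e-05), where the 3 baseline pools that remained averaged 70.2 ± 52.2 CPM. Hba2, the only blood marker of 8 that could be read, averaged 79.7 and 80.9 CPM in the classes.

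Srrm2, a splicing scaffold, averaged 426.4 ± 45.4 CPM in the long-lived and 531.7 ± 87.4 CPM in the baseline pools (SD, n = 9), a log2 difference of −0.31 (adjusted p = 0.24). Its baseline means were 443.6 ± 28.7 CPM at high and 575.7 ± 70.1 CPM at low Rn28s. Without the 6 pools of low Rn28s the difference was −0.07 (unadjusted p = 0.443). Fmnl1, a formin that assembles actin filaments, averaged 40.4 ± 4.87 and 50.9 ± 7.18 CPM (−0.32, adjusted p = 0.344). Its 3 baseline pools of high Rn28s averaged 56.0 ± 3.50 CPM, above the 48.4 CPM of the other 6. Nat8l, which makes N-acetylaspartate in neurons, averaged 56.8 ± 10.1 and 71.2 ± 12.8 CPM (−0.32, adjusted p = 0.368).

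No member of any pathway list passed between the classes. The lists held only genes with a symbol here, and a symbol came only from the tables in which the study named genes it had called somewhere, so the lists are partial and their members selected. Medians of the lists with 4 or more genes lay between −0.06 and 0.05, beside the median of all genes near 0.

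Of the nuclear subunits of complex I, the entry of the respiratory chain, 20 were tested and their median was −0.01, with 8 above 0. A single one, Ndufa13, had an unadjusted p under 0.05, at 0.71 (SE 0.24, adjusted p = 0.548), which is 5% of the list beside 6.4% of all genes. Ndufa13 lay at 10.1 to 13.7 CPM in the long-lived pools, at 12.4 to 19.1 CPM in the 3 baseline pools of high Rn28s and at 2.7 to 5.87 CPM in the 6 of low Rn28s. Without those 6 pools its difference was −0.42. For the 10 nuclear subunits of complex IV the median was −0.01 and none had an unadjusted p under 0.05.

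None of the immune genes that had a symbol passed in either contrast. Of the 5 genes of MHC class II presentation, Cd74, the invariant chain, averaged 76.5 ± 18.98 CPM in the long-lived and 65.0 ± 22.3 CPM in the baseline pools (SD, n = 9), a log2 difference of 0.26 (adjusted p = 0.691), and the other 4 lay between −0.15 and −0.01. In the feeding contrast all 5 lay below 0 in the restricted pools, with a median of −0.34, and 4 had an unadjusted p under 0.05, beside 2.68% of all genes in that direction. Their adjusted p values there were 0.452 for Cd74, 0.714 for RT1-Db1 and 0.885 for RT1-Da, and Hba2, the blood marker, lay at −0.37 beside them (adjusted p = 0.314). The 7 microglial markers also lay below 0 in that contrast, with a median of −0.05 and the lowest, Itgam, at −0.39 (adjusted p = 0.891). The 4 astrocyte markers went both ways, with Gfap at −0.34 (adjusted p = 0.301), Aqp4 at −0.16, Vim at −0.03 and Gjb6 at 0.23 (adjusted p = 0.891). The part of these markers in the lower MHC values was not tested. Between the classes the 7 microglial markers had a median of 0.04 and lay between −0.05 and 0.18. The highest was Ctss, the lysosomal protease cathepsin S of microglia, which averaged 253.6 and 225.7 CPM (unadjusted p = 0.0129, adjusted p = 0.638).

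Restricted rats received their food once a day. The clock list had 8 genes with a median of 0.05 between the classes and 0.16 between the feeding states. Dbp, an output factor of the clock, averaged 67.4 ± 12.2 CPM in restricted and 50.9 ± 2.32 CPM in ad libitum pools (SD, n = 9), a log2 difference of 0.41 (SE 0.08, adjusted p = 0.0754). Between the classes it was at 0.21 (adjusted p = 0.67). Cry2, a repressor of the clock, was 0.20 higher in restricted pools (adjusted p = 0.667).

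Of 11 immediate early genes, which neurons switch on with activity, Fosb had the smallest p. It averaged 8.25 ± 2.90 CPM in the long-lived and 11.8 ± 1.88 CPM in the baseline pools (SD, n = 9), a difference of −0.49 (adjusted p = 0.605). The list median was −0.02. Egr1 was at −0.15 (adjusted p = 0.866).

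Antioxidant genes, 11 in all, had a median of −0.02, and the lowest p was that of Gpx1, glutathione peroxidase, at −0.20 (adjusted p = 0.723). Of 4 genes of insulin and PI3K signalling, Rheb, the GTPase that switches on mTORC1, averaged 48.0 ± 8.51 and 57.4 ± 7.93 CPM (SD, n = 9), a difference of −0.26 (adjusted p = 0.581). The 9 identifiers of heat shock and chaperone genes had a median of 0.01, the 7 of sterol synthesis 0.02, the 7 of glutamate receptors −0.01, the 7 of cytosolic ribosomal proteins 0.03 and the 5 of the glucocorticoid response 0.02. No gene of the list of proteins encoded by the mitochondrial genome had a symbol here.

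The 6 measured genes of histone acetylation, among them the acetyltransferase Kat6a and the deacetylase Hdac5, lay between 0.00 and 0.09 with none at an unadjusted p under 0.05. The lipoylated enzyme complexes, which carry lipoic acid as a cofactor, were represented by Amt alone. Of the interferon list Mx2 and Ifit2 could be read, and Mx2 averaged 18.9 ± 3.96 and 15.9 ± 1.57 CPM (SD, n = 9, adjusted p = 0.792).

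**Figure D5:**
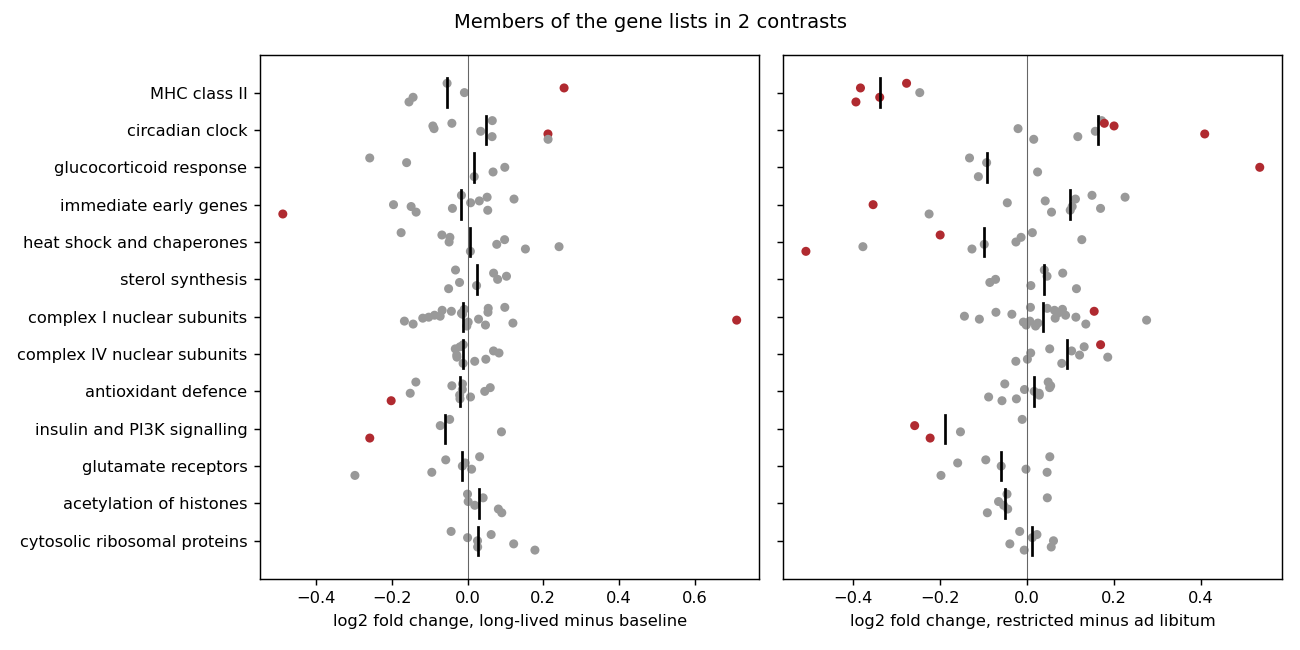
Log2 fold change (horizontal axes) of each member of 13 gene lists (rows) between long-lived and baseline diets (left) and between restricted and ad libitum feeding at 28 months (right). Points are genes, red where the unadjusted p is under 0.05, and black bars are list medians, the lowest of which is −0.34 for MHC class II on the right.

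The study's own list of genes for long-lived cohorts was read apart, since it was chosen on these pools together with the plain AL pools and is no independent evidence. All 137 identifiers were tested here. Sars passed in the higher and ENSRNOG00000046170 in the lower direction, and 16 were higher and 5 lower at an unadjusted p under 0.05, beside 3.8% and 2.61% of all genes in these directions. The median was 0.03, with 81 of 137 above 0. Of 15 genes that the study names for these cohorts none passed. Npm1, the nucleolar chaperone nucleophosmin, had the smallest p, with 36.1 ± 5.65 and 27.1 ± 7.32 CPM (SD, n = 9) and a difference of 0.44 (SE 0.12, adjusted p = 0.312). Npm1 averaged 34.9 CPM in the 3 baseline pools of high Rn28s and 23.3 CPM in the 6 of low Rn28s.

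Across all genes, the 3 diet means of one class lay wholly above or below those of the other for 1987 genes (11.5%), 1025 higher (5.95%) and 962 lower (5.58%). All 6 called genes were among them. For 1 gene (0.0058%) all 9 long-lived pools lay above all 9 baseline pools, and this gene, ENSRNOG00000009151, singled out after its values were seen, had a log2 difference of 0.54 and an adjusted p of 0.135. Other fits gave 0 calls between the classes, a fit of the 2 classes with no term for diet (1110 at an unadjusted p under 0.05) and a fit of all 39 libraries together (797).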

How the data were processed

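Ribosomal RNA was removed from the RNA of each pool, and libraries were sequenced as forward reads on a SOLiD instrument. The authors deposited, for every library, whole-number counts of reads on each Ensembl gene, made with Bowtie against rn5, without multiply mapping reads, and HTSeq. Versions and strand settings are not given in the sources used here. Dropping multiply mapped reads lowers the counts of near-identical genes.

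From the counts, 5 lines that name no gene were dropped (reads not aligned were 34.08 to 41.31% of all reads, and 80.43 to 83.01% of those aligned fell in no gene), and genes with at least 1 CPM in at least 3 of all 39 libraries were kept (17230 of 26123). The 18 pools were scaled by TMM and fitted with a term per diet by edgeR 4.0.16 in R 4.3.3, with 12 residual degrees of freedom. Contrasts of diet means were tested by the quasi-likelihood test with Benjamini-Hochberg adjustment over all genes tested. The SE of a log2 change was taken from the change and its F statistic. The code was tested on simulated counts, where known changes were recovered and false calls ran somewhat above the nominal rate. The contrast weighs the 3 diets of a class equally and its error comes from pools within diets, so p-values measure the spread between these pools and do not extend to other diets of a class.

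Same-diet pools differed by more than counting noise in all 18 pairs (chi-square per degree of freedom 2.75 to 39.8). Symbols come from the study's tables and name 1669 genes, those it called in some comparison, so a gene without a symbol was counted but not named. The genes named are the 12 of smallest p in each direction, up to 3 of each list and up to 3 per direction passing in another contrast, and list members without an unadjusted p under 0.05 are mostly given by their lists. Members and lists were chosen with earlier results of these data known. Alternatives were RLE factors, other filters, DESeq2 1.42.0, limma 3.58.1 with diet as a random effect, further terms and covariates, and leaving out pools or diets. Leaving out the pools of low Rn28s was chosen after seeing the data. The authors' own fold changes were not used. Small RNA and protein measurements were not analysed here. Some results are not reported here.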

Additional observations from a re-analysis of the deposited data

Results flagged for a closer look

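Within each class of 9 pools, the highest and lowest pool was set against its neighbour for 44 measures (named genes with an unadjusted p under 0.05 and library measures), 88 sets in all. In 5 sets the gap to the nearest pool exceeded Dixon's critical share of the range, and chance alone flags about 1 in 20 sets. Alb reached 126.3 CPM in AL+LA pool 35, where the next baseline pool had 61.1 CPM. Bccip, a partner of BRCA2 and p21, reached 31.2 CPM in the same pool against 18.5 CPM in the next. Dbp lay at 70.3 CPM in AL+LA>CR pool 22, the baseline pool of lowest Rn28s, against 57.8 CPM. Pttg1ip lay at 49.8 CPM in CR>AL pool 25 against 42.1 CPM, and Ddx3x at 265.9 CPM in CR>AL+LA pool 30 against 236.2 CPM. The difference between the feeding states was tested for every gene and gave 0 calls by edgeR and 0 by DESeq2, with 659 genes at an unadjusted p under 0.05 by edgeR.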

How the results depend on the processing

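The 6 calls between the classes were few and moved with the setting. RLE factors gave 6, other count minimums 6, DESeq2 9, the share of reads not aligned as a covariate 8, cerebellar markers as a covariate 6, limma with diet as a random effect 5 and leaving out pools 22 and 34 (chosen after seeing the data) 6. Each of the last 2 fits kept only 3 of the 6 main calls. By limma these were Sars, Cirbp and Atp5c1, each at an adjusted p of 0.0493, and neither lower gene passed (adjusted p = 0.101 and 0.202). The correlation between pools of 1 diet in that fit was −0.0458. With no filter on low counts there were 85 between the classes, 43 in restricted pools, 24 in ad libitum pools, 15 for the difference between the feeding states and 77 for feeding. DESeq2 gave 1 in restricted pools, 2 in ad libitum pools and 10 for feeding. A fit of all 39 libraries gave 0 between the classes and 3 for feeding, a fit with no term for diet 0, early restriction, feeding and lipoic acid as terms 11, feeding held 4, and Rn28s as a covariate 1. Without CR there were 2, without AL>CR 1, without CR>AL+LA 6, without AL+LA 40, without AL+LA>CR 6 and without CR>AL 0, from fewer pools each. Of the 6 main calls, 4 were kept without CR>AL+LA and 5 without AL+LA>CR. Without the 6 baseline pools of low Rn28s, also chosen after seeing the data, there were 3, all lower and none of them among the 6. Direction was followed only for the named or called genes with an unadjusted p under 0.05 in the main fit. Of these, 3 turned direction in the fit without the 6 pools, Asrgl1 to −0.013, Ppp1r9b to −0.053 and Ndufa13 to −0.42. The cause of these shifts was not tested. With 1 pool left out the calls ran from 3 (without pool 17, 20, 21, 22, 23, 25, 26, 27 or 28) to 27 (without pool 24) between the classes, from 0 to 3 in restricted pools, from 0 to 1 in ad libitum pools, at 0 for the difference between the feeding states, and from 2 to 11 (without pool 35) for feeding. No paired analysis was possible because pool numbers are unique across the diets. Depth of 2.62 to 5.78 reads per CPM limits what can be seen in genes near the filter.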
